A study of Mus musculus with 2 samples.

Results

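The genes described here code for the proteases, the proton pump and the main membrane glycoproteins of the lysosome: the cathepsins, the subunits of the vacuolar H+-ATPase (V-ATPase), Lamp1 and Lamp2. The rule takes every row of the deposited table whose platform symbol begins with Cts or Atp6v followed by a further letter or digit, or is Lamp1 or Lamp2, and uses no signal. It gave 46 probes for 46 genes, of 19505 named genes and 22206 probes in all: 22 cathepsins, 21 V-ATPase subunits, both Lamp genes and Atp6v1fnb, a neighbour of Atp6v1f whose symbol fits but which is not a pump subunit. Each row of the table, 1 signal per platform identifier, is called a probe. The smoke sample came from mice exposed to smoke for 3 months, and the air sample from control mice kept in air for 3 months. Both were lung cells sorted for SPC/GFP and EpCAM, where SPC stands for surfactant protein C, made by alveolar type 2 cells, and EpCAM marks the surface of epithelial cells, and each was read on 1 Clariom S Mouse array. Strain, sex, age, the type of smoke, the number of animals behind a sample and the driver of the GFP reporter are not stated in those sources that were used. Ctsd and Atp6v0c, which RefSeq lists under the same naming, were not analysed here.

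Cathepsins are made as inactive precursors and become active in the acid lumen of endosomes and lysosomes, where most cut proteins as cysteine proteases and a few as aspartic or serine enzymes. The acid comes from the V-ATPase, a rotary pump: the cytosolic V1 sector hydrolyses ATP, and the turning central stalk drives protons through the membrane-bound V0 sector. Lamp1 and Lamp2 are heavily glycosylated proteins that line the lysosomal membrane. In alveolar type 2 cells the lamellar body, which stores surfactant, is a lysosome-related organelle that is also acidified by this pump, and cathepsin H and napsin A take part there in cutting the precursors of surfactant proteins B and C.

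All values are deposited log2 signals, and a difference is smoke minus air on that scale. With 1 array per condition there was no replicate spread, no SD and no p-value, so each difference compares these 2 samples and the number of arrays limits the precision. A gene was counted when its brighter array reached 4.57, the median of all values in the table. As a yardstick, the 19505 named genes were split by their mean level into 10 bins of equal size, and each gene was set against the median difference of its bin and the bin's robust SD (a scaled median absolute deviation), which holds both noise and real differences. Over the counted members the bin medians ran from -0.08 to 0.12 and the robust SDs from 0.39 to 0.50. The brightest bin spanned means from 10.4 to 19.93, so level matching was coarse there. It also held the 16 genes at the table's highest value on both arrays. The sort was checked with 13 type 2 genes: 7, Sftpc and Sftpb among them, were at the table's highest value of 19.93 on both arrays, and the other 6 differed by 0.00 to 0.25. The highest value was not particular to type 2 genes, since the airway marker Scgb1a1 was also at 19.93 on both arrays. Ager, an alveolar type 1 marker, was at 18.54 in smoke and 18.41 in air. Endothelial markers were also present in both samples, with a median difference of -0.68 over 11 genes. Of these, 9 were lower in smoke, against 44.7% of all genes above the filter, and 2 were higher. Esam was one of the higher ones, at 8.71 in smoke and 8.05 in air. The medians were -0.255 over 10 alveolar type 1 markers, -0.05 over 7 fibroblast and smooth muscle markers, -0.28 over 6 airway markers and 0.02 over 6 lymphocyte markers above the filter, with Ptprc, the leukocyte gene CD45, at 7.59 in smoke and 7.64 in air. Neutrophil markers had positive medians: the value was 0.28 over all 13 in the table and 0.75 over the 6 above the filter, of which 5 were higher and Il1r2 and Retnlg passed by their smoke signals alone. Their part in the members' differences was not tested. Because whole sorted samples were measured, fewer cells of a type and less RNA per cell cannot be told apart.

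Most lysosomal genes had a slightly higher signal in smoke than in air. Of the 46 members, 32 passed the level filter. Ctsc, the dipeptidyl peptidase that activates serine proteases of granulocytes, was at 19.93 on both arrays, so no difference could be read for it. Of the other 31 members, 26 were higher in smoke, 4 were lower and 1, Atp6v1g2, was equal; this was 83.9% higher, where 54.3% of 10419 named genes above the filter were higher and 44.7% lower. The median difference was 0.37 for the members and 0.06 for all 10419 genes. Genes of like level were on average slightly higher in smoke as well, so the bin medians were subtracted: 24 members (77.4%) then lay above their bin's median and 7 below, against 49.2% of all genes above, and the members' median was 0.28. The sizes were small: 29 of the 31 members were within 2-fold.

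At least 2-fold, Ctsa was the 1 member higher and Ctss the 1 member lower, where the background over all genes above the filter was 3.94% higher and 2.48% lower by the same rule. At 1.5-fold, 8 of 31 members (25.8%) were higher, against 14.5% of all genes, and 2 were lower, Ctss and Ctsm, against 9.19% of all genes. More than 1 robust SD above the bin median lay 10 of 31 members (32.3%), against 17.9% of all genes. The filter let 3 members through by a single array: Ctsf by its smoke signal, and Atp6v1e2 and Cts3 by their air signals. The remaining 14 members lay below the filter on both arrays, with signals from 1.82 to 4.40 in smoke and from 2.02 to 3.97 in air. Of these, 8 were higher and 6 lower in smoke. Without a filter, 47.7% of 19489 named genes were higher, and the share below the filter alone was not computed. The largest differences of the 14 members were those of Cts8 (-0.65), of Atp6v0e2 (0.60) and of Cts7 and Ctsj (0.59 each).

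**Figure D1:**
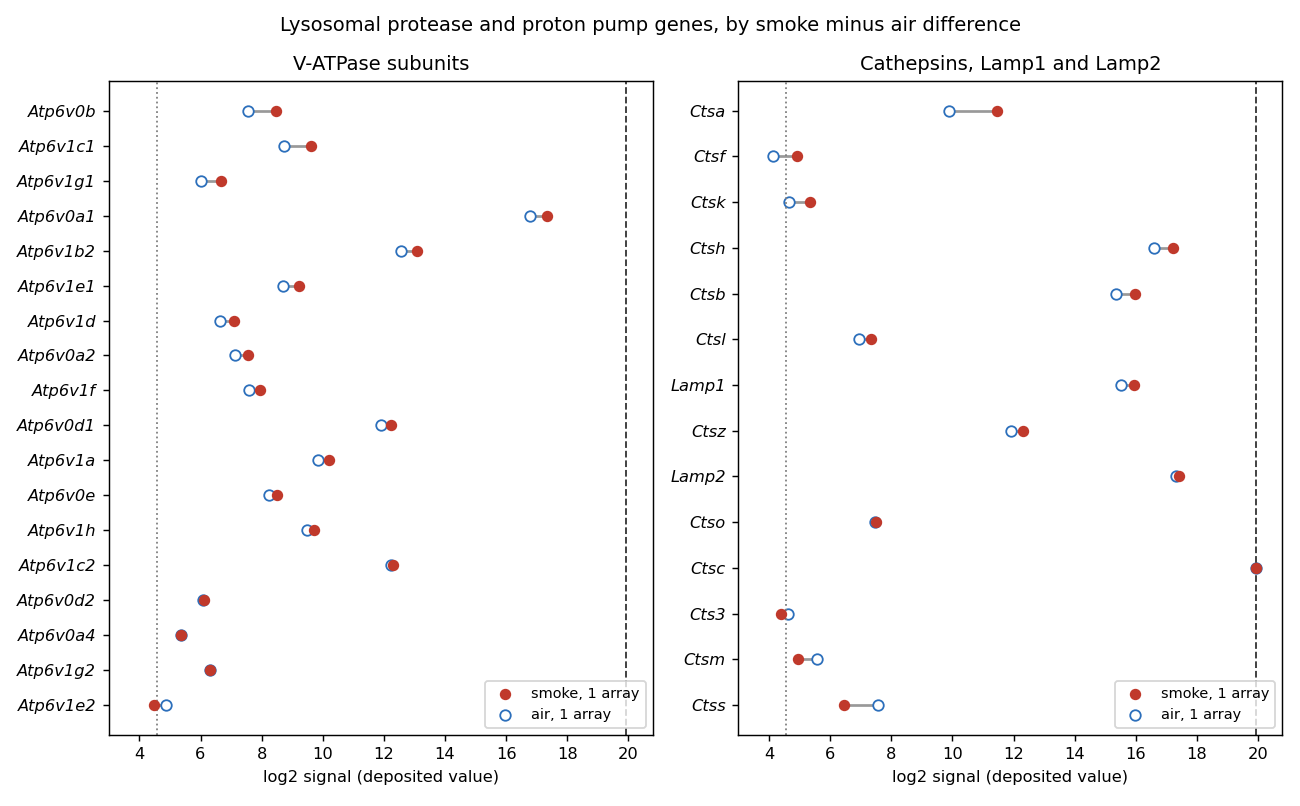
Log2 signal in smoke (filled red) and in air (open blue) for the members above the level filter, V-ATPase subunits on the left and cathepsins with Lamp1 and Lamp2 on the right, each ordered by the smoke minus air difference. The dotted line is the filter at 4.57 and the dashed line the table's highest value of 19.93. Each point is 1 array. Ctsa has the widest gap, 11.47 in smoke and 9.89 in air, and Ctss the widest in the other direction.

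Promoter sequences were examined for what the members share beyond their names, because many lysosomal genes are known to carry E-box-like elements that bind the transcription factors TFEB and TFE3. RefSeq windows (GRCm38.p6) of 300 bases, 250 before and 50 after an annotated start, were found for 36 of the 46 members. The E-box core CACGTG, which reads the same on both strands, was in the windows of 9 of these 36 genes (25%), against 8.09% of 27025 genes in the whole promoter table. The longer form TCACGTGA, which contains the core, was in 4 of 36 (11.1%) against 1.12% of all genes, and the form of 10 bases, which adds a G before and a C after it, in 0 of 36 against 0.37%. The whole promoter table also holds genes that are not above the filter. Among named genes above the filter with a window, 957 held the core and 7516 did not. For TCACGTGA these counts were 183 and 8290. Both are larger shares than in the whole promoter table. A match is a run of letters and not evidence of binding. The 6 windows below belong to members above the filter and hold either TCACGTGA or more than 1 core; capitals mark each core, with its flanking t and a where both are present. The windows are those of Ctsa (chr2:164833523-164833822, plus strand), Atp6v0b (chr4:117887280-117887579, minus strand), Atp6v0d1 (chr8:105566015-105566314, minus strand), Atp6v0e (chr17:26676146-26676445, plus strand), Atp6v1a (chr16:44139210-44139509, minus strand) and Lamp1 (chr8:13158911-13159210, plus strand), each printed 5′ to 3′ on the strand of its gene.
Ctsa: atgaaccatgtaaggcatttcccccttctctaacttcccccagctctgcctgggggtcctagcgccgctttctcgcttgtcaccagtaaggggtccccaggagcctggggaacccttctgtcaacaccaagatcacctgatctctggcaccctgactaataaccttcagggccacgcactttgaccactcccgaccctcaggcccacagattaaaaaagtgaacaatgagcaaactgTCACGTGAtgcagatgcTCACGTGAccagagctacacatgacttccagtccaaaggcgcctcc
Atp6v0b: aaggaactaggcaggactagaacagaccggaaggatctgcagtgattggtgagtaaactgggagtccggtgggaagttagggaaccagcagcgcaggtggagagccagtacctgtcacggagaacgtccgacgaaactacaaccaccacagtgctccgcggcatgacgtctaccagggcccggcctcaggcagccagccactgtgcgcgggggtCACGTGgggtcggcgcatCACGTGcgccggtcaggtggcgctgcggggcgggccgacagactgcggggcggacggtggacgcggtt
Atp6v0d1: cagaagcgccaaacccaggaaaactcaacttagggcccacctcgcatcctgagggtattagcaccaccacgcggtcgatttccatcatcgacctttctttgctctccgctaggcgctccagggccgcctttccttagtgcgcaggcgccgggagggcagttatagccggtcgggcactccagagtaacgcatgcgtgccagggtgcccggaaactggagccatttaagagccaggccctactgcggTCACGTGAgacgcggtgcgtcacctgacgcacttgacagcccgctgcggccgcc
Atp6v0e: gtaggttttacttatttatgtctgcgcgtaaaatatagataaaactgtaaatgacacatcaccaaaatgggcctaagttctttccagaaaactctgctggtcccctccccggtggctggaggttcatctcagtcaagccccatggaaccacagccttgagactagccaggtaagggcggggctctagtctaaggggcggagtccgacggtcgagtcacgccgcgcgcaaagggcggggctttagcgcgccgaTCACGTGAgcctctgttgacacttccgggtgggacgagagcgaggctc
Atp6v1a: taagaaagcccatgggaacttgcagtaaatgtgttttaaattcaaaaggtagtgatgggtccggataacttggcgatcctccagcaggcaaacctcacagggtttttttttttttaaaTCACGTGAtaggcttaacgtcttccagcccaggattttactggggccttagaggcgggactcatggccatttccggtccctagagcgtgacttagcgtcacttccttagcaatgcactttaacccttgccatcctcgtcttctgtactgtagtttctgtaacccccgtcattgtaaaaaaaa
Lamp1: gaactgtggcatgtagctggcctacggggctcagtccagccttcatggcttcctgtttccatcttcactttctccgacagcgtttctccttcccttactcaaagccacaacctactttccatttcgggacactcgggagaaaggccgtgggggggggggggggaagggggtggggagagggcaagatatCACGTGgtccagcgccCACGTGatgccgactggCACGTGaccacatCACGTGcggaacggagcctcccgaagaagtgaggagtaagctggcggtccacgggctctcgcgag

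Counted with the annotated start as base 0, the cores of Lamp1 began at -61, -45, -28 and -15, those of Atp6v0b at -36 and -18, and those of Ctsa at -12 and 5, so that these 3 windows hold their cores close to the start. Ctsa has another annotated start, whose window (chr2:164832622-164832921) held no core. A gene was counted with the core when any of its windows held it. The core of Atp6v0d1 began at -3, that of Atp6v0e at 3 and that of Atp6v1a farther away, at -131. Among the 23 members above the filter with a window and a readable difference, the 8 with the core were Ctsa, Ctsf, Ctsl, Lamp1, Atp6v0b, Atp6v0d1, Atp6v0e and Atp6v1a. All 8 were higher in smoke, with a median difference of 0.42. Of the 15 without it, 10 were higher, with a median of 0.08. Counted members without a window were in neither group: Atp6v1h, Atp6v1b2, Ctsb, Ctsh, Atp6v0a2, Atp6v0d2, Atp6v1g1 and Atp6v1c1. All of them were higher in smoke, from 0.04 for Atp6v0d2 to 0.89 for Atp6v1c1. Ctsf, with the core, passed the filter by its smoke signal alone, and Atp6v1e2 and Cts3, without it, by their air signals alone. Over all named genes above the filter the same split gave medians of 0.11 for 957 genes with the core and 0.06 for 7516 without it. Of these genes, 57.7% with the core and 54.2% without it were higher in smoke. For TCACGTGA the members' medians were close, at 0.345 for 4 genes with it and 0.37 for 19 without. After subtraction of the bin medians they were 0.26 and 0.25. All 4 with it and 14 of the 19 without it were higher. Over all named genes above the filter the medians were 0.15 for 183 genes with TCACGTGA and 0.06 for 8290 without. The shares higher in smoke were 62.3% with it and 54.5% without. These splits are descriptions of 2 arrays, and the E-box core is also the site of other factors, including those of the circadian clock.

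The cytosolic V1 sector was higher in smoke in most of its parts. Of 13 V1 genes 11 passed the filter, with a median difference of 0.37. Of the 11, 9 (81.8%) were higher, against 54.3% of all genes above the filter, 1 was lower and 1 was equal. Atp6v1a, the subunit A that hydrolyses ATP, had a signal of 10.20 in smoke and 9.86 in air, a difference of 0.34. Atp6v1b2, the widely expressed form of subunit B, which sits beside A in the catalytic ring, stood at 13.09 in smoke and 12.56 in air. Its difference of 0.53 was larger than that of 85.4% of the 1951 genes in its level bin. Atp6v1b1, the form of B known from kidney, inner ear and epididymis, did not reach the filter, at 2.55 in smoke and 2.47 in air. Both catalytic ring proteins with a readable signal were thus higher in smoke, by less than 1.5-fold.

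Among the V1 stalk subunits, Atp6v1c1 had the largest difference. Subunit C joins the peripheral stalks to the membrane sector and leaves when the pump comes apart. Atp6v1c1, its widely expressed form, had 9.61 in smoke and 8.72 in air, which is 1.85-fold higher; 86 of the 1950 genes in its bin had a larger difference. Atp6v1c2, the form known from kidney and lung, where it has been placed on lamellar bodies, had 12.31 in smoke and 12.22 in air, a difference of 0.09 close to its bin median of 0.07. Subunits D and F form the rotor: Atp6v1d had 7.10 in smoke and 6.65 in air, and Atp6v1f had 7.94 in smoke and 7.57 in air. Atp6v1h, the subunit H that is needed for activity of the assembled pump, had 9.72 in smoke and 9.50 in air, a difference of 0.22.

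Subunits E and G pair to make the peripheral stalks, and each had 1 form above the filter that was higher. Atp6v1e1, the widely expressed E, had 9.22 in smoke and 8.71 in air, a difference of 0.51, while Atp6v1e2, known from testis, had 4.49 in smoke and 4.87 in air and was below the filter in smoke. Atp6v1g1, the widely expressed G, had 6.68 in smoke and 6.02 in air, 1.58-fold higher. Atp6v1g2, known from neurons, had 6.32 on both arrays, and Atp6v1g3, known from kidney, was below the filter at 3.88 in smoke and 3.51 in air. Atp6v1fnb, which is not a subunit, was also below the filter, at 3.12 in smoke and 3.23 in air.

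In the membrane sector all 7 V0 genes above the filter were higher in smoke, against 54.3% of all genes above the filter. Their median difference was 0.35, with a range from 0.02 to 0.92, and 6 of the 7 lay above their bin median. Atp6v0b, a proteolipid of the ring that carries protons, had the largest difference of any pump gene, with 8.47 in smoke and 7.55 in air, 1.89-fold higher; 115 of the 1951 genes in its bin had a larger one. Subunit a holds the proton channels and steers the pump to its membrane. Its form Atp6v0a1 had 17.33 in smoke and 16.78 in air, a difference of 0.55, and Atp6v0a2, known from the Golgi and endosomes, had 7.54 in smoke and 7.14 in air. Atp6v0a4, the kidney form, had 5.37 in smoke and 5.35 in air. Tcirg1, the a3 form of lysosomes and osteoclasts, carries another symbol and was not counted as a member; it had 6.78 in smoke and 6.67 in air. Atp6v0a1 and Atp6v0a2 were thus higher by 0.55 and 0.40, and the other forms of subunit a by at most 0.11.

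Subunit d couples the rotor to the ring. Atp6v0d1, its widely expressed form, had 12.24 in smoke and 11.89 in air, a difference of 0.35, and Atp6v0d2, known from osteoclasts and kidney, had 6.13 in smoke and 6.09 in air. Atp6v0e, a small membrane subunit, had 8.50 in smoke and 8.24 in air, and its relative Atp6v0e2, known from brain, was below the filter at 4.40 in smoke and 3.80 in air. Within subunits C, E, G and d the form above the filter with the larger difference was Atp6v1c1 (0.89), Atp6v1e1 (0.51), Atp6v1g1 (0.66) and Atp6v0d1 (0.35), beside Atp6v1c2 (0.09), Atp6v1e2 (-0.38), Atp6v1g2 (0.00) and Atp6v0d2 (0.04). The forms of subunit e went the other way, at 0.26 for Atp6v0e and 0.60 for Atp6v0e2 below the filter, and Atp6v1g3, also below it, was at 0.37. The differences between isoforms were not tested. Signals of different isoform probes were not set against each other, since each probe has its own response.

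**Figure D2:**
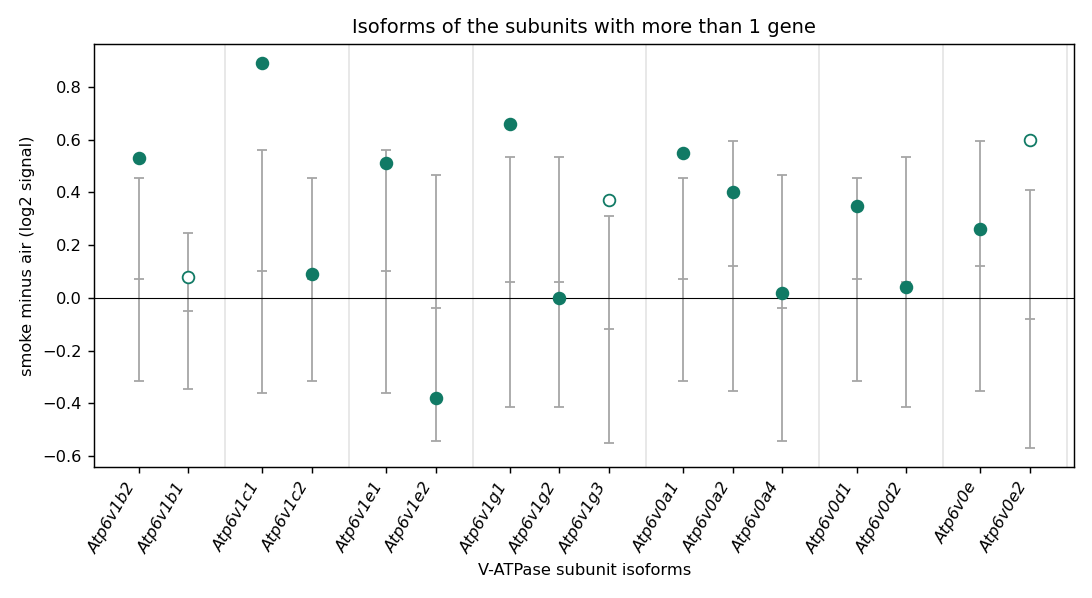
Smoke minus air difference (log2 signal) of each gene of the V-ATPase subunits that have more than 1 gene, grouped by subunit in the order B, C, E, G, a, d and e. Filled points are genes above the level filter and open points genes below it; grey bars show the median ± 1 robust SD of all named genes in the same level bin. Atp6v1c1 (0.89), Atp6v1g1 (0.66), Atp6v0a1 (0.55) and Atp6v1b2 (0.53) lie above their bars, as do Atp6v0e2 (0.60) and Atp6v1g3 (0.37), which are below the filter; Atp6v1c2, Atp6v1g2, Atp6v0a4 and Atp6v0d2 lie within 0.10 of 0.

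The pump as a whole had 18 of 21 subunit genes above the filter, of which 16 (88.9%) were higher in smoke, against 54.3% of all genes, with a median difference of 0.36; 15 of the 18 lay above their bin median. None was at least 2-fold higher or lower, and 3 (16.7%) were at least 1.5-fold higher, Atp6v0b, Atp6v1c1 and Atp6v1g1, a share near the 14.5% of all genes. A list of 13 other V-ATPase genes, which are the subunit gene Tcirg1 and 12 genes of proteins that accompany, assemble or regulate the pump, had a median of 0.04, with 8 higher and 5 lower; the 12 alone, a split chosen after seeing the data, also had 0.04. Within that list Tmem199, an assembly factor of the membrane sector, was at 4.53 in smoke and 5.59 in air, 2.08-fold lower, and Dmxl2, a subunit of the complex that rejoins V1 and V0, was at 6.42 in smoke and 7.24 in air. Tmem199 passed the filter by its air signal alone. With an offset of 16 added to the linear signals, its difference was -0.71 instead of -1.06. Atp6ap1 and Atp6ap2, the accessory proteins of the pump, differed by -0.20 and 0.08.

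**Figure D3:**
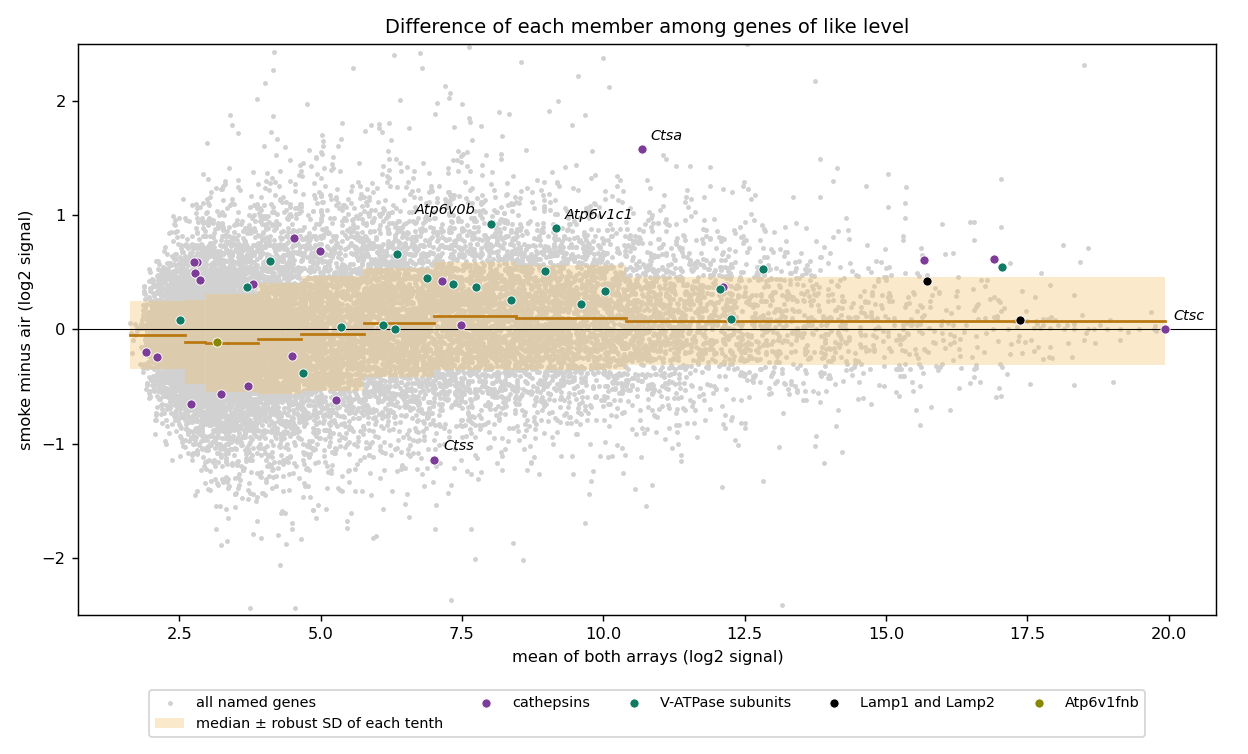
Smoke minus air difference (log2 signal) against the mean of both arrays for all named genes (grey, 17 of which lie beyond the plotted range of 2.5 in either direction), with cathepsins in purple, V-ATPase subunits in green, Lamp1 and Lamp2 in black and Atp6v1fnb in olive. Brown lines and bands show the median ± 1 robust SD of each of 10 level bins. Ctsa, at 1.58, stands above the band, Ctss, at -1.14, below it, and most V-ATPase subunits lie between the median line and the upper edge of the band or just above it.

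The cathepsins differed more among themselves. Of 22, 11 passed the filter with a readable difference. In smoke 8 (72.7%) were higher, against 54.3% of all genes above the filter, and 3 were lower. The median difference of the 11 was 0.42, with an SD of 0.74 among genes, against 0.32 among the pump genes. Ctsa, protective protein cathepsin A, is a serine carboxypeptidase that also shields beta-galactosidase and neuraminidase 1 from breakdown in the lysosome. Its signal was 11.47 in smoke and 9.89 in air, 2.99-fold higher, and 9 of the 1951 genes in its level bin (0.461%) had a larger difference. That bin spans means from 10.4 to 19.93, and Ctsa, at a mean of 10.68, lies near its lower end. The RefSeq span of Ctsa overlaps those of Pltp and Neurl2, and whether the probe separates them was not tested. Pltp, the phospholipid transfer protein, was lower, at 14.17 in smoke and 14.47 in air, and Neurl2 was at 4.22 in smoke and 4.20 in air. The partner enzyme Neu1, neuraminidase 1, was at 4.92 in smoke and 5.20 in air.

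Ctss, cathepsin S, trims the invariant chain of MHC class II in antigen-presenting cells and is known for its high expression in macrophages and dendritic cells. It had 6.44 in smoke and 7.58 in air, 2.20-fold lower, and 20 of the 1951 genes in its bin had a more negative difference. Of 24 macrophage and monocyte markers in the table, 13 passed the filter, 4 higher and 9 lower in smoke, with a median difference of -0.15. Summed on the linear scale, the 24 came to 255045 in smoke and 257592 in air. Lyz1 was at 17.91 in smoke and 17.90 in air. Without it, left out after seeing the data, the other 23 came to 8754 in smoke and 13003 in air. Such sums are weighted toward the brightest probes. Spi1 and Chil3 had the highest air signals of the 23, and the lower sum in smoke rests largely on them. Chil3, a chitinase-like macrophage protein, was at 9.87 in smoke and 11.27 in air, Spi1, the myeloid factor PU.1, at 12.03 in smoke and 12.85 in air, and Cd14 went the other way, at 10.26 in smoke and 9.20 in air. The other 11 markers, among them Marco and Adgre1, were below the filter on both arrays, while Mrc1 was at 8.59 in smoke and 8.82 in air, Cybb at 8.73 in smoke and 9.45 in air, and Csf1r at 6.54 in smoke and 6.69 in air. Their part in the Ctss difference was not tested.

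Outside the placental family, described below, the other cysteine cathepsins above the filter had positive readable differences. Ctsh, the aminopeptidase of lamellar bodies, had 17.22 in smoke and 16.60 in air, 1.54-fold higher. Ctsb, cathepsin B, an abundant lysosomal protease of many tissues, had 15.97 in smoke and 15.36 in air, 1.53-fold higher. Of the 1951 genes in their bin, the brightest and widest, 200 had a larger difference than Ctsh and 204 a larger one than Ctsb. Ctsk, cathepsin K, the collagen-degrading enzyme of osteoclasts, had 5.33 in smoke and 4.64 in air, close to the filter, and Ctsf, cathepsin F, had 4.93 in smoke and 4.13 in air. With an offset of 16 added to the linear signals, which damps differences near the floor, the difference of Ctsk was 0.46 instead of 0.69 and that of Ctsf 0.47 instead of 0.80.

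Ctsl, cathepsin L, had 7.35 in smoke and 6.93 in air, Ctsz, the carboxypeptidase cathepsin Z, had 12.30 in smoke and 11.93 in air, and Ctso, cathepsin O, had 7.50 in smoke and 7.46 in air. Their differences of 0.42, 0.37 and 0.04 were within 1 robust SD of like-level genes. Over the 8 cysteine cathepsins outside the placental family that passed the filter with a readable difference, 7 were higher and 1, Ctss, was lower. Their median was 0.515 and their mean 0.30. The placental cathepsins Ctsm and Cts3, which also passed the filter, were not in this count and were lower. Ctsw, a cathepsin of cytotoxic lymphocytes, was below the filter at 3.47 in smoke and 3.97 in air. Of the remaining non-cysteine enzymes, Ctse, an aspartic protease of stomach and immune cells, and Ctsg, a serine protease of neutrophil granules, were also below it, at 3.03 and 1.82 in smoke, against 2.54 and 2.02 in air.

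The 9 placental cathepsins, a rodent-specific family on chromosome 13, are known from the placenta. They had signals between 1.99 and 4.96 in smoke and between 2.23 and 5.58 in air, with 4 higher and 5 lower. Only Ctsm, at 4.96 in smoke and 5.58 in air, and Cts3, at 4.38 in smoke and 4.61 in air, passed the filter, and both were lower. Their sequence identity was not measured here, and whether their probes separate these genes was not tested. Differences from -0.65 to 0.59 thus occurred among placental cathepsins with signals near or below the filter. Outside this family, Atp6v0e2, below the filter, was at 0.60, and Ctsk and Ctsf, close to it, were at 0.69 and 0.80.

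Lamp1 had 15.93 in smoke and 15.51 in air, a difference of 0.42, and Lamp2, which also serves chaperone-mediated autophagy, had 17.41 in smoke and 17.33 in air, a difference of 0.08. Lamp3, the lamellar body relative that is not a member, was at the highest value on both arrays. Lamp1 thus exceeded its bin median of 0.07 by 0.35, less than 1 robust SD, and Lamp2 lay at it.

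Other lysosomal genes gave the setting. Of 27 other hydrolases above the filter, 19 (70.4%) were higher and 8 lower in smoke, against 54.3% of all genes higher. Their median was 0.15. Past 1.5-fold 8 (29.6%) were higher and 1 lower, against 14.5% and 9.19% of all genes. Dpp7, a dipeptidyl peptidase, was at 6.50 in smoke and 5.59 in air, and Acp5, the tartrate-resistant acid phosphatase, at 8.33 in smoke and 7.53 in air. Gla, alpha-galactosidase A, was at 5.44 in smoke and 6.05 in air. Lgmn, legumain, which cuts several cathepsin precursors, had 13.15 in smoke and 12.52 in air, and Napsa, napsin A, had 19.76 in smoke and 19.61 in air, just under the highest value.

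Lysosomal membrane proteins and activators had a median of 0.12 over 25 genes, with 15 (60%) higher and 10 lower, against 54.3% of all genes higher. At least 2-fold higher were 2 of the 25, against 3.94% of all genes. Clcn7, the chloride-proton exchanger that works alongside the pump, had 7.94 in smoke and 6.57 in air, 2.58-fold higher. Mcoln1, the calcium channel mucolipin 1, had 10.31 in smoke and 9.27 in air, 2.06-fold higher. Laptm4b, a membrane protein of late endosomes, went the other way, at 9.18 in smoke and 10.01 in air. Genes that sort enzymes to the lysosome had a median of 0.14 over 19, with Ap1m2, the epithelial AP-1 adaptor subunit, showing the largest difference of the list, at 8.80 in smoke and 7.93 in air.

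Cathepsin inhibitors had a median of -0.205 over the 6 of 18 above the filter, 2 higher and 4 lower, with 0 past 1.5-fold; Cst3, cystatin C, was at 12.77 in smoke and 12.97 in air, and Cstb, the cytosolic cystatin B, at 8.73 in smoke and 8.30 in air. The list of transcription factors and mTORC1 docking genes had a median of 0.04 over 17 genes. Tfeb was below the filter, at 4.43 in smoke and 4.44 in air, Tfe3 was at 6.43 in smoke and 6.39 in air, and Mitf, of the same family, was at 9.41 in smoke and 9.05 in air. The transcripts of these factors thus differed by -0.01, 0.04 and 0.36. Flcn, folliculin, a regulator of TFE3 and TFEB at the lysosome, was at 10.53 in smoke and 9.18 in air, 2.55-fold higher, and Mtor was at 8.89 in smoke and 8.04 in air. Tfec and Rraga, a RAG GTPase that recruits mTORC1, were lower, by differences of -0.83 and -0.60, with Tfec close to the filter at 4.07 in smoke and 4.90 in air.

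**Figure D4:**
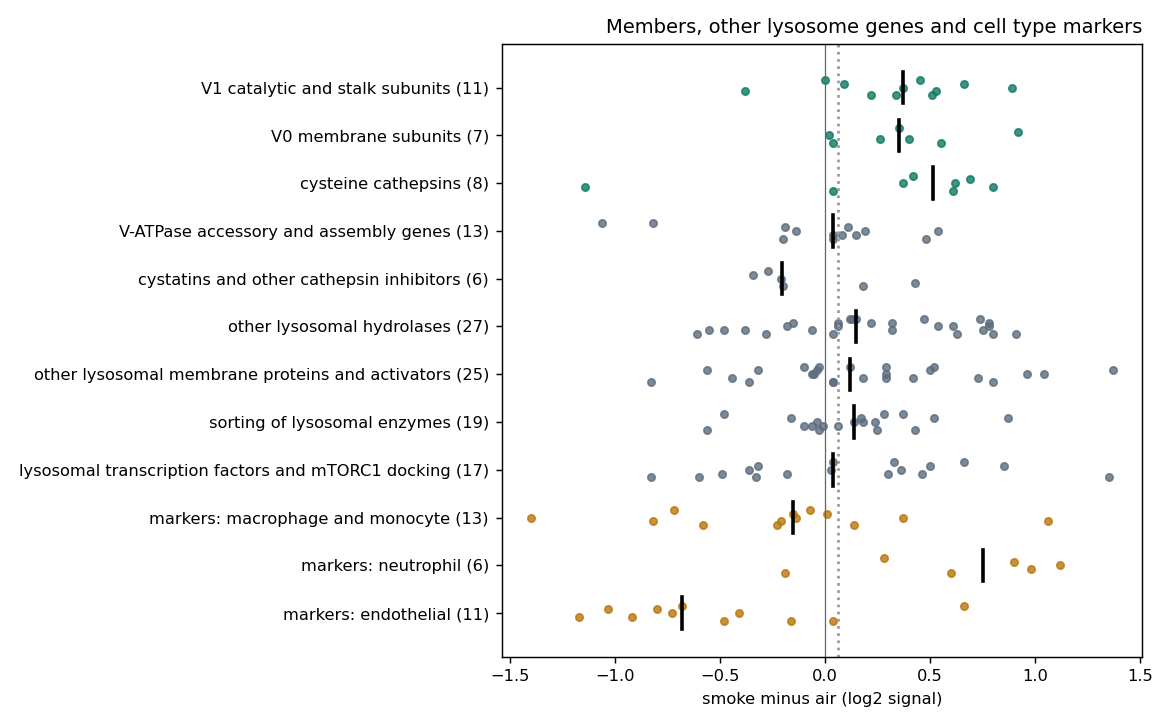
Smoke minus air difference (log2 signal) of each gene above the level filter in the main V-ATPase and cathepsin groups (green), other lysosome lists (grey) and markers of other cell types (brown), with the number of genes in brackets. Black bars are list medians and the dotted line is the median of all named genes above the filter, 0.06. The V1, V0 and cysteine cathepsin medians are 0.37, 0.35 and 0.515, and the other lysosome lists lie between -0.205 and 0.15. The cysteine cathepsin group leaves out the placental family.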

How the data were processed

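Total RNA of sorted lung cells from 1 smoke and 1 air sample was hybridised to 1 array each. The authors deposited 1 value per probe, read here as log2 signal from the values (1.55 to 19.93); per the submitters' processing notes the tool was Transcriptome Analysis Console; settings, background correction, normalization and build: not given in the sources used here. Medians were 4.53 in smoke and 4.61 in air, so the values look normalized between arrays, and scale and centring stay unstated. The deposited values ended at 19.93 on both arrays, at 25 probes in smoke and 26 in air. Folds printed are log2 differences turned back to the linear scale.

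Probes of 1 gene were averaged (19505 genes); each member had 1 probe, and all 46 gene numbers matched RefSeq. Genes at the highest value on both arrays were left out of counts and medians. The members and the lists were chosen with earlier results of these data known. Every member above the filter is named, with the widest differences below it; of each other lysosome list, up to 2 genes per direction past 1.5-fold, or otherwise the gene that differed most, and 11 set genes, of which Cd68 was not analysed here. Further genes were named after their values were seen. Of 249 genes in the 15 other lists, 19 were not analysed here. Protein identity between isoforms was planned and not run. The size rule was run on simulated data with planted changes larger than its threshold, in genes well above the filter. That run does not cover smaller differences or genes near the filter. Python 3.11.15 with pandas 2.3.3 and NumPy 2.4.6 was used. Alternatives comprised other filters and thresholds, quantile normalization, centring by level bin, an offset of 16 and means over members.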

Additional observations from a re-analysis of the deposited data

How the results depend on the processing

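With 1 array per group no paired analysis was possible because no replicate exists, and the lack of replicates limits every value above. Ctsa stayed at least 2-fold higher under every filter and scaling tried. Ctss stayed at least 2-fold lower under the scalings, and the count of lower members was 0 with a filter at the 75th percentile, 7.60, above which Ctss does not lie. At 1.5-fold the members counted were 8 higher and 2 lower, and at 3-fold 0 and 0, since Ctsa was 2.99-fold higher. Of the 31 members, 23 (74.2%) were higher under quantile normalization, against 47.9% of all genes; Atp6v0d2, Atp6v1c2 and Ctso changed sign there, to -0.03, -0.07 and -0.07.

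Under quantile normalization the median of all genes moved to -0.02, and those of the members to 0.26, of the cathepsins to 0.31, of the pump to 0.24, of V1 to 0.26, of V0 to 0.19 and of the aspartic and serine cathepsins to 1.47. Centring by level bin gave 0.30 for the cathepsins and 0.25 for V1. The cathepsin median was 0.615 with the filter at the 75th percentile. The means were 0.29 for all cathepsins and 0.30 for the cysteine ones outside the placental family. The aspartic and serine group holds Ctsa alone above the filter (1.58) and the placental group 2 genes (-0.425); without a filter they had 0.49 and -0.23; the placental value was -0.62 with a filter on the mean of both arrays and -0.29 with the offset. Under quantile normalization the medians of other lysosome lists moved from 0.15 to 0.075 for hydrolases, from 0.14 to 0.07 for sorting genes, from 0.12 to 0.0075 for membrane proteins and from -0.205 to -0.3225 for cathepsin inhibitors; centring gave 0.08, 0.08, 0 and -0.30. Small medians of other lists changed sign under quantile normalization and under centring: the other V-ATPase genes to -0.055 and -0.02, the transcription factor list to -0.02 and -0.02, lymphocyte markers to -0.054 and -0.045, and fibroblast markers to 0.01 and 0.03; type 2 markers changed to -0.025 under centring. The causes were not tested.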

Other observations

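A list of 6 genes known beside the V-ATPase in acid-secreting intercalated cells was also read. Of 4 above the filter, 2 were higher and 2 lower. Slc26a4, the anion exchanger pendrin, was at 11.37 in smoke and 10.37 in air, and Cftr, the chloride and bicarbonate channel, was at 14.47 in smoke and 13.66 in air. Foxi1, the transcription factor that defines those cells, did not reach the filter on either array, at 2.57 in smoke and 3.11 in air.

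Ctsk and Ctss are neighbouring genes on chromosome 3 in the RefSeq assembly, and their differences were 0.69 and -1.14. Cst7, cystatin F, an inhibitor found in immune cells, likewise stayed under the filter, at 3.87 in smoke and 2.64 in air. The spans of 9 members overlap another gene of the table in RefSeq. Besides those of Ctsa, Fdft1 (with Ctsb) was at 12.26 in smoke and 12.63 in air, and Nelfcd (with Ctsz) at 5.36 in smoke and 5.99 in air, both lower while the cathepsin was higher. Slc18a1 (with Atp6v1b2) differed by 0.66, Pdia6 (with Atp6v1c2) by 0.11 and Nfkbil1 (with Atp6v1g2) by 0.09; Tmem213 and D630045J12Rik (with Atp6v0a4) differed by 0.00 and -0.12. Of the members below the filter, Ctsw overlaps Fibp (0.54) and Atp6v1fnb overlaps Kcp (-0.30). Whether the probes separate these pairs was not tested.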
